A study of Mus musculus with 12 samples.

Results

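Glomeruli that lack TNF receptor 2 were compared with wildtype glomeruli after both had been exposed to TNF ex vivo. The comparison was defined by the array titles and used 6 of the 12 expression arrays of the series, 3 from Tnfr2-/- and 3 from wildtype glomeruli, and it was described across all 18194 genes that the arrays measure with at least 1 uniquely named probe set. In each of the 12 cultures 5000 glomeruli, the capillary tufts that filter the blood, were taken from male mice of 6 to 8 weeks by perfusion with magnetic beads, kept in culture, starved of serum and then given 50 ng/ml TNF for 12 hours. Wildtype mice carried both receptor genes on the C57BL/6J background. Tnfr2-/- mice carried a targeted deletion of Tnfrsf1b, Tnfr1-/- mice one of Tnfrsf1a, and Tnfr1,2-/- mice both. The mutants came from B6.129 lines, wildtype and double-deficient animals were bred by crossing the single mutants, and the deletions were present in every cell of the mouse, so that resident and trapped blood cells of the glomerulus carried them too. All cultures received TNF, and unstimulated glomeruli were not analysed here, so a difference between genotypes is a difference in the presence of TNF and not a response to it. The preparations of a genotype were independent ones according to the methods, but whether each came from separate mice is not given in the sources used here, and the p-values measure the spread between these preparations.

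TNF acts through a pair of receptors. TNF receptor 1 is present on most cells, carries a death domain and signals through TRADD, TRAF2 and RIPK1 to NF-kB, which drives chemokines, adhesion molecules and inhibitors of its own activity such as IkB alpha. TNF receptor 2 has no death domain, recruits TRAF2 directly, is found mainly on endothelial and immune cells, and is activated far better by TNF held in a membrane than by the soluble cytokine that was used here. In the kidney it is known for its part in immune complex glomerulonephritis.

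The arrays gave log2 values between 1.93 and 14.1 after the authors' normalization, with array medians between 5.59 and 5.64. A control probe set for beta-actin at the 3' end was compared with one at the 5' end, a measure of RNA and labelling quality, and split the arrays into 2 sets. In both genotypes replicates 1 and 2 belonged to set 1 (3' over 5' differences of 0.667 to 1.01 on the log2 scale) and replicate 3 to set 2 (1.83 in wildtype and 2.09 in Tnfr2-/-), so the sets were balanced between the groups compared. Tnfr1,2-/- and Tnfr1-/- glomeruli were not balanced in this way. Replicates 2 and 3 of Tnfr1,2-/- (1.82 and 2.30) but only replicate 3 of Tnfr1-/- glomeruli (1.95) belonged to set 2. Within its genotype each of the 6 Tnfr2-/- and wildtype arrays correlated with the others at a mean r of 0.984 to 0.990. Wildtype replicate 3 lay furthest from its group, with 708 genes at least 2-fold away, and wildtype replicate 2 closest, with 114, but in certain gene lists replicate 2 stood apart. Its mean level of 8 parietal epithelial markers was 7.76 on the log2 scale, below the range of 8.39 to 8.76 in the other wildtype and 8.50 to 8.73 in the Tnfr2-/- arrays, and its mean level of 24 cell cycle genes was 7.68 against 8.26 to 8.33 on the other 5 arrays.

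Tnfrsf1b, the gene that encodes TNF receptor 2, was examined first. Its values were 7.77, 7.71 and 7.41 on the 3 wildtype arrays and 5.66, 4.95 and 5.38 on the 3 Tnfr2-/- arrays. The groups did not overlap, and the labels of all 6 arrays matched the level of the targeted gene. The log2 change was -2.30 (standard error 0.33, 95% interval -3.02 to -1.58), a 4.92-fold lower signal. Adjusted over all 18194 genes with limma it stayed above the threshold (adjusted p = 0.125), and it passed with the array set as a block (adjusted p = 0.0236). A further probe set of the gene was lower by much less, with 6.29, 6.64 and 5.99 in wildtype and 5.74, 5.73 and 6.05 in Tnfr2-/- glomeruli. The position of the probe sets relative to the deleted part of the gene is not given in the sources used here. Tnfrsf1a, which encodes TNF receptor 1, had values of 10.70, 10.73 and 10.23 in wildtype and 10.77, 10.82 and 10.60 in Tnfr2-/- glomeruli, and its interval of -0.35 to 0.70 around a log2 change of 0.17 lay within 2-fold of no change. In Tnfr1-/- glomeruli, which carry a deletion in this gene, it was still at 9.80, 10.18 and 9.24, so this probe set does not check their label. Tnf, the ligand, was at 6.79, 6.90 and 6.26 in wildtype and at 6.68, 6.76 and 6.69 in Tnfr2-/- glomeruli.

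**Figure D1:**
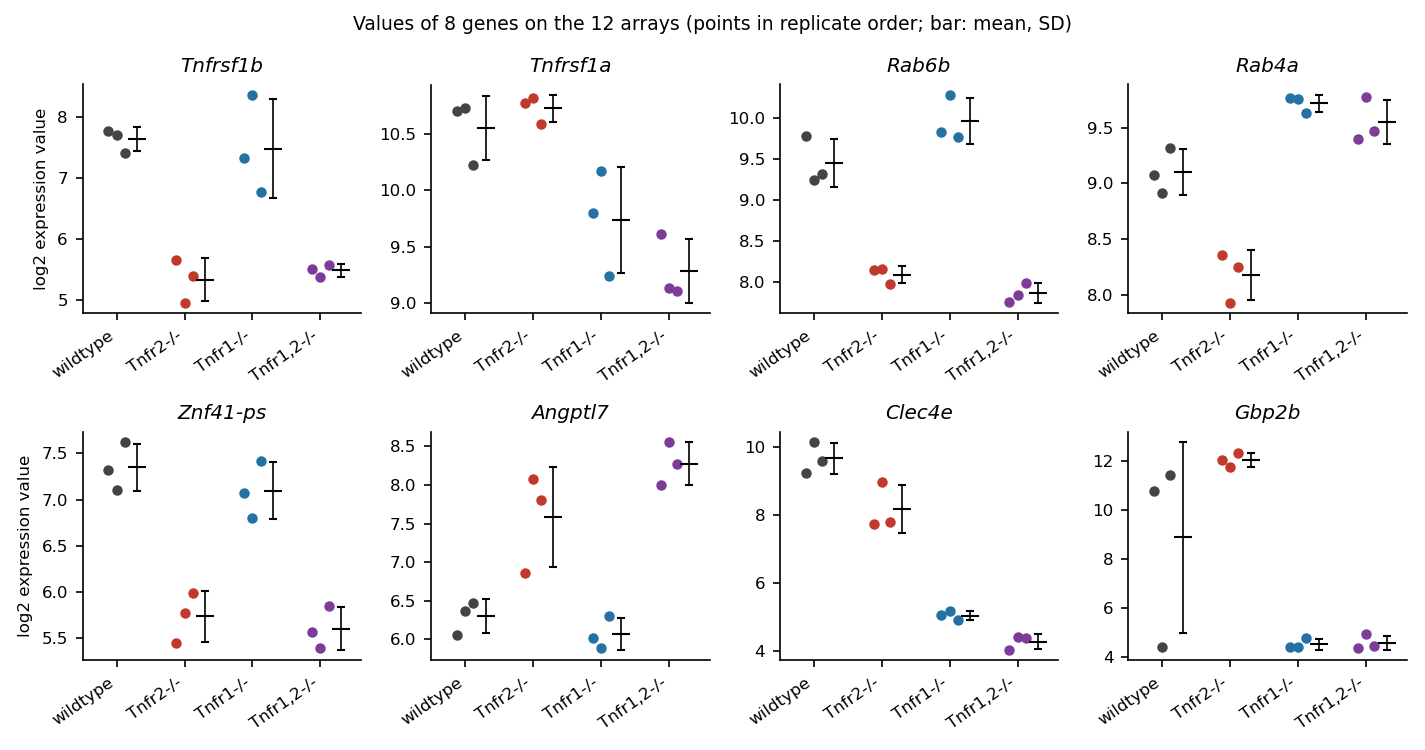
Log2 expression values (y axis) of 8 genes on all 12 arrays, by genotype (x axis), with points in replicate order and bars for the mean and SD of 3 arrays. Tnfrsf1b, Rab6b and Znf41-ps are low in both genotypes without Tnfr2, Rab4a is low in Tnfr2-/- glomeruli alone, and the Gbp2b value of wildtype replicate 2 lies at 4.39, far below the other wildtype arrays.

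Across all genes, few differences were detected in the absence of TNF receptor 2, and none at the threshold set. A gene was called where limma gave an adjusted p under 0.05 and the genotypes differed 1.5-fold or more, and none was in Tnfr2-/- against wildtype glomeruli (0% of 18194). At an unadjusted p under 0.05 there were 128 genes, of which 47 were lower (0.258%) and 81 higher (0.445%) in Tnfr2-/- glomeruli. Where no gene differs, 5% of genes are expected at such a p, and the 128 genes fall well below that share. The test was therefore strict here, and 0 calls do not show that no gene differed. The cause of the low count was not tested. A block for the array set brought the calls to 3, Tnfrsf1b, Rab6b and Znf41-ps (0.0165%), and 275 genes then had an unadjusted p under 0.05. Values of both genotypes were fully separated, without overlap, in 476 genes that were lower (2.62%) and 422 that were higher (2.32%). The same 3 genes were called by the SAM statistic at a q under 5%, and Znf41-ps alone was called with the replicate number as a block.

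The differences were small in size as well as few by this test. Of all genes, 93.5% were within 1.2-fold of wildtype, and the middle 50% of the log2 changes lay between -0.08 and 0.08. A change of at least 1.5-fold was seen for 87 genes, 12 lower and 75 higher. In Tnfr1-/- glomeruli 928 genes and in Tnfr1,2-/- glomeruli 1497 genes reached that size against the same wildtype arrays. These counts also hold the spread between arrays. Genes at least 2-fold from their own group numbered 327, 688 and 1130 in Tnfr1-/- replicates 1 to 3. They numbered 1424, 164 and 1154 in Tnfr1,2-/- and 296, 120 and 523 in Tnfr2-/- replicates 1 to 3. The part of this spread and of the array set in the counts was not tested. Without wildtype replicate 2, 19 genes were lower and 65 higher in Tnfr2-/- glomeruli by 1.5-fold or more, and 70 genes had an unadjusted p under 0.05. The 95% interval of a gene had a median width of 0.42 to either side on the log2 scale, which is 1.34-fold, and for 91.3% of genes the whole interval lay within 2-fold of no change.

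**Figure D2:**
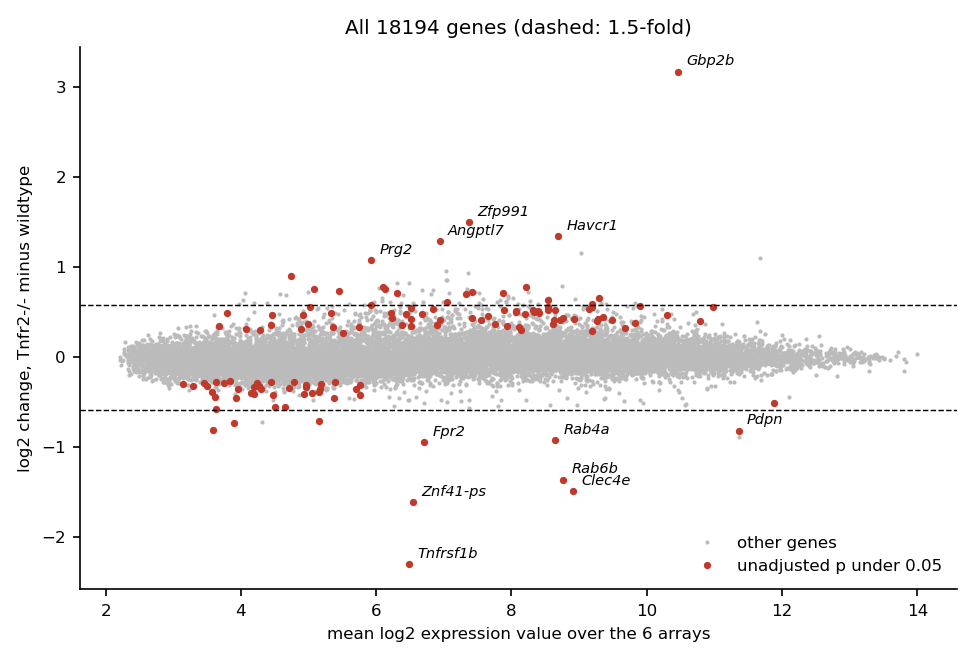
Log2 change of Tnfr2-/- minus wildtype (y axis) against the mean log2 value over the 6 arrays (x axis) for 18194 genes. Red points are the 128 genes with an unadjusted p under 0.05, dashed lines mark 1.5-fold, and 4 genes lie below and 7 above 2-fold.

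Of the 4 genes that were at least 2-fold lower, Rab6b was the one with the most even values. Rab6b encodes a small Rab GTPase of the Rab6 family, which directs vesicles from the Golgi. Its values were 9.78, 9.24 and 9.32 in wildtype and 8.14, 8.15 and 7.97 in Tnfr2-/- glomeruli, so that the lowest wildtype array lay above the highest Tnfr2-/- array. The log2 change was -1.36 (standard error 0.18, 95% interval -1.75 to -0.97), a 2.56-fold lower level, with an adjusted p of 0.0822 from limma and of 0.0236 with the array set as a block. All 4 probe sets of the gene were lower, with log2 changes of -1.36, -1.40, -1.03 and -1.23. The change was -1.36 in array set 1 and -1.35 in array set 2.

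The difference in Rab6b was also present where Tnfr1 was absent. Tnfr1-/- glomeruli had 9.82, 10.28 and 9.77 and Tnfr1,2-/- glomeruli 7.76, 7.84 and 7.99, which share no array with the comparison above. Rab6b was the 1 gene called between these genotypes (0.0055% of genes), with a log2 change of -2.09 (adjusted p = 0.0021). Tnfr2-/- glomeruli were lower than Tnfr1-/- glomeruli by 1.87 in this gene (adjusted p = 0.00023).

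The bases before the start site of Rab6b are shown because it was the gene outside chromosome 4 that was lowest relative to its spread without Tnfr2. The stretch of 250 bases is given 5' to 3' on the plus strand of chr9:103111824-103112073 (GRCm38.p6, RefSeq), and it holds no match to the NF-kB motif searched further down.

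Rab6b: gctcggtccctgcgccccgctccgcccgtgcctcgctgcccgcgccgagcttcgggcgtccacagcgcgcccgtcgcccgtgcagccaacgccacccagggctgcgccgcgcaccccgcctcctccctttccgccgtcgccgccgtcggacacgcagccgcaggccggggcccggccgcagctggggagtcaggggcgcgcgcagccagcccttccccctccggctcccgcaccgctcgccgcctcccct

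Other genes of the same machinery were looked at as a list. Of 37 Rab GTPases measured, 2 had an unadjusted p under 0.05, Rab6b and Rab4a, both lower (0.258% of all genes were lower at that level), and the median log2 change of the list was -0.02 against 0.00 for all genes. Rab4a encodes a GTPase of early and recycling endosomes. It was at 9.08, 8.91 and 9.32 in wildtype and at 8.36, 7.93 and 8.25 in Tnfr2-/- glomeruli, without overlap, and the log2 change was -0.92 (standard error 0.16, adjusted p = 0.552 from limma). Both of its probe sets were lower. Unlike Rab6b, Rab4a was at 9.40, 9.78 and 9.47 in Tnfr1,2-/- and at 9.77, 9.76 and 9.63 in Tnfr1-/- glomeruli, ranges that overlap, and it was called lower in Tnfr2-/- than in either of these genotypes, by 1.37 against Tnfr1,2-/- (adjusted p = 0.0010) and by 1.54 against Tnfr1-/- (adjusted p = 0.00049). The difference between the changes with and without Tnfr1 was 0.75 for Rab4a (95% interval 0.25 to 1.25), which did not pass the adjustment over all genes (adjusted p = 0.998 from limma). Rab6a, the close relative of Rab6b, had a log2 change of -0.13 (95% interval -0.66 to 0.39). None of 28 Rab6 regulators, effectors and Golgi SNAREs had an unadjusted p under 0.05, and their median log2 change was 0.07.

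Clec4e, the remaining gene that was at least 2-fold lower, encodes Mincle, a C-type lectin that senses damaged cells and mycobacterial glycolipid. Its values were 9.24, 10.13 and 9.59 in wildtype and 7.73, 8.97 and 7.80 in Tnfr2-/- glomeruli, without overlap, a log2 change of -1.49 (standard error 0.31, 95% interval -2.17 to -0.80) that did not pass the adjustment over all genes. Both probe sets of Clec4e were lower. In Tnfr1-/- glomeruli its values were 5.06, 5.17 and 4.91, and Tnfr2-/- glomeruli were called above these by 3.12 (adjusted p = 0.00035). Fpr2, a receptor for formyl peptides on phagocytes, was at 6.70, 7.40 and 7.43 in wildtype and at 6.18, 6.40 and 6.11 in Tnfr2-/- glomeruli (log2 change -0.94, standard error 0.27).

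Cst7, which encodes the protease inhibitor cystatin F of immune cells, and Clec5a, a lectin of monocytes, were named after their values were seen. Their log2 changes were -0.71 and -0.55, and in both the highest Tnfr2-/- array lay above the lowest wildtype array. Of the 131 genes called lower in Tnfr1-/- than in wildtype, 4 were lower and 2 higher in Tnfr2-/- glomeruli at an unadjusted p under 0.05. The 4 were Clec4e, Fpr2, Cst7 and Clec5a, and none of them was called. Of all genes 0.258% were lower and 0.445% higher at that level. The 131 genes were chosen for a low level without Tnfr1 against the same wildtype arrays. A high wildtype value favours a lower value in both mutants, so the count is a description. No gene of the macrophage marker list had an unadjusted p under 0.05. Its 15 measured members had a median log2 change of 0.23, 13 were positive, the median ran from -0.02 to 0.47 when 1 array at a time was left out, and its defining marker Adgre1 was at 5.93, 6.96 and 6.27 in wildtype and at 6.40, 7.13 and 6.62 in Tnfr2-/- glomeruli. The summed linear signal of the list ran from 6284 to 9739 in wildtype and from 6436 to 11811 in Tnfr2-/- arrays.

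Of the genes at least 2-fold higher in Tnfr2-/- glomeruli, the arrays did not overlap for Gbp2b, Zfp991 and Angptl7, which are described further down, and smaller differences without overlap were seen elsewhere. G530011O06Rik, an uncharacterized transcript of the X chromosome, was at 4.79, 4.06 and 4.04 in wildtype and at 5.18, 5.20 and 5.20 in Tnfr2-/- glomeruli. Vsir, which encodes the immune checkpoint receptor VISTA, was at 7.08, 6.97 and 7.13 in wildtype and at 7.86, 7.71 and 7.78 in Tnfr2-/- glomeruli. The values of both genes were tight within each genotype, apart from wildtype replicate 1 for G530011O06Rik, and their log2 changes were 0.90 and 0.72. Irf8, a transcription factor of mononuclear phagocytes, had a log2 change of 0.70, Ifi27l2a, an interferon-stimulated gene, 0.76, Nid2, a basement membrane protein, 0.71 and Amn, a partner of cubilin in protein uptake, 0.76. None of these was called, and none had an unadjusted p under 0.05 in the same direction between Tnfr1,2-/- and Tnfr1-/- glomeruli, where the log2 changes were -0.05 (G530011O06Rik), -0.14 (Vsir), -0.31 (Irf8), -0.15 (Ifi27l2a), 0.19 (Nid2) and -0.20 (Amn).

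The largest log2 change of all genes was that of Gbp2b, a guanylate-binding protein induced by interferon, which was named after its values were seen. It was at 10.79, 4.39 and 11.45 in wildtype and at 12.06, 11.75 and 12.34 in Tnfr2-/- glomeruli, without overlap. The log2 change of 3.17 (95% interval 0.20 to 6.15) rested on wildtype replicate 2, whose level was that of Tnfr1-/- (4.38, 4.38 and 4.77) and Tnfr1,2-/- glomeruli (4.36, 4.90 and 4.43), and without that array the change was 0.93. Tnfr2-/- glomeruli were called above Tnfr1-/- glomeruli by 7.54 in Gbp2b (adjusted p = 0.0185). Prg2, Havcr1, Lcn2 and Erdr1 were also at least 2-fold higher by their means and were named after their values were seen. Their arrays overlapped between the genotypes, and wildtype replicate 2 was the lowest wildtype array for Prg2, Havcr1 and Lcn2. Without that array none of these 3 reached 2-fold, as the log2 change went from 1.08 to 0.77 for Prg2, from 1.35 to 0.93 for Havcr1 and from 1.16 to 0.68 for Lcn2. That of Erdr1 went from 1.10 to 0.19 without wildtype replicate 3. Leaving out Tnfr2-/- replicate 1 lowered Prg2 to 0.71 and Erdr1 to 0.74.

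Several of the largest differences were in genes near Tnfrsf1b on chromosome 4. Within 10 Mb on either side 239 genes were measured, of which 5 were lower and 3 higher at an unadjusted p under 0.05, against 0.258% and 0.445% of all genes. The genetic background of this stretch, which a B6.129 line can carry from the cells used for targeting, was not tested. Lower were Tnfrsf1b itself, Znf41-ps, Zfp979, Pdpn and Htr1d, and higher were Zfp991, Zfp982 and Angptl7. Zfp982 was at a low level, with means of 3.55 in wildtype and 4.04 in Tnfr2-/- glomeruli. Its log2 change of 0.49 was as low as 0.045 under another choice of processing. Znf41-ps, a zinc finger pseudogene, was at 7.32, 7.11 and 7.62 in wildtype and at 5.45, 5.77 and 5.99 in Tnfr2-/- glomeruli. With a log2 change of -1.61 (standard error 0.21) it had the smallest p of all genes, at an adjusted p of 0.0822 from limma, 0.00605 with the array set as a block and 0.00235 with the replicate number as a block.

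Zfp991, a zinc finger gene, was at 6.16, 7.21 and 6.48 in wildtype and at 7.92, 8.57 and 7.86 in Tnfr2-/- glomeruli, a log2 change of 1.499 (standard error 0.31). Its probe sets disagreed. The probe set shown has the highest mean, a further one was at 6.20, 6.17 and 6.10 in wildtype and at 4.18, 4.41 and 4.43 in Tnfr2-/- glomeruli, and the mean of the gene's 3 probe sets had a log2 change of -0.08. The direction of Zfp991 therefore depends on the probe set, and zinc finger genes of this region resemble each other in sequence, so which of them a probe set measures is uncertain. Angptl7, a secreted angiopoietin-like protein, was at 6.05, 6.37 and 6.47 in wildtype and at 6.86, 8.08 and 7.81 in Tnfr2-/- glomeruli (log2 change 1.29, standard error 0.28). Pdpn encodes podoplanin, a membrane glycoprotein of podocytes, and was at 11.68, 11.62 and 12.00 in wildtype and at 10.54, 10.93 and 11.38 in Tnfr2-/- glomeruli (log2 change -0.81, 95% interval -1.49 to -0.14).

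The same genes were then read on the arrays of Tnfr1,2-/- and Tnfr1-/- glomeruli, which differ in the same gene and share no array with the comparison. The array sets were not balanced between those genotypes. Of the 127 genes other than Tnfrsf1b with an unadjusted p under 0.05, 51 had the same sign there and 76 the opposite sign. With an unadjusted p under 0.05 in both comparisons there were 11 of the 127 in the same direction and 7 in the opposite direction, while 2.59% of all genes had such a p in either direction between Tnfr1,2-/- and Tnfr1-/- glomeruli. Both p-values of a gene take its spread from the same fit of all 12 arrays. Genes picked for a small p tend to have a small spread, which favours a small p in both, so these counts are a description. The 11 were Rab6b, Clec4e, Znf41-ps, Zfp979, 5830444B04Rik and H3c4, which were lower, and Angptl7, Zfp991, Zfp982, Fut4 and Gcnt1, which were higher (5830444B04Rik, H3c4, Fut4 and Gcnt1 fall outside the rule for named genes). Clec4e counts as lower between Tnfr1,2-/- and Tnfr1-/- glomeruli only by its brightest probe set (-0.77), since its further probe set had a log2 change of 0.02 there. Of the 12 genes with Tnfrsf1b, 6 lie within 10 Mb of it. At least 2-fold in both comparisons were Tnfrsf1b (-2.30 and -1.998 on the log2 scale), Rab6b (-1.36 and -2.09), Znf41-ps (-1.61 and -1.49), Zfp991 (1.499 and 2.28) and Angptl7 (1.29 and 2.20). Zfp991 counts as higher only by its brightest probe set, since a further probe set of the gene was lower in both comparisons (-1.82 and -1.44). Over all 18194 genes the 2 sets of log2 changes had a Pearson correlation of -0.06, where genes are not independent replicates.

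**Figure D3:**
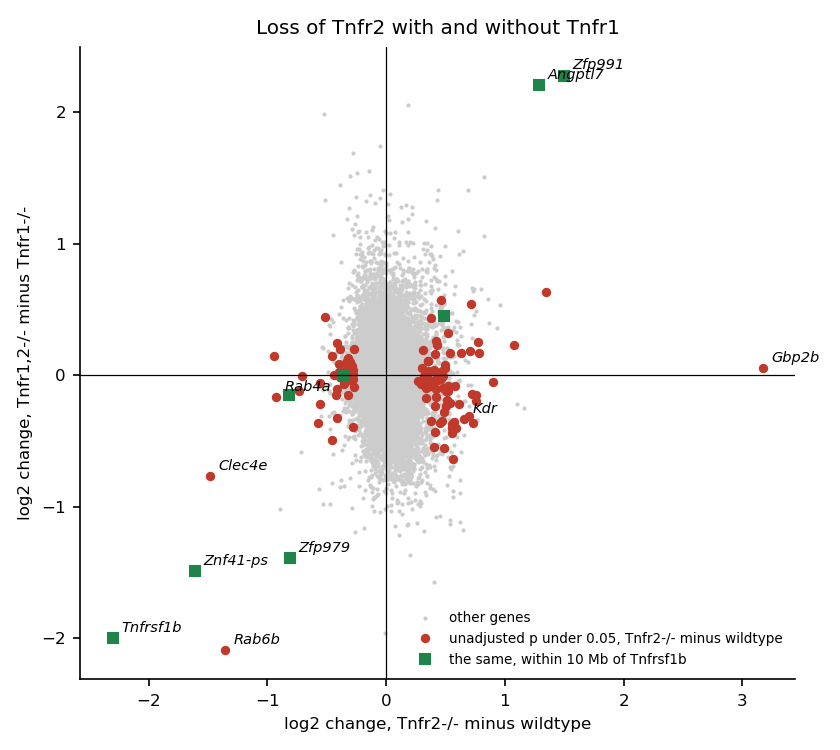
Log2 change of Tnfr2-/- minus wildtype (x axis) against that of Tnfr1,2-/- minus Tnfr1-/- (y axis) for all genes. Red circles and green squares mark the 128 genes with an unadjusted p under 0.05 on the x axis, the squares those within 10 Mb of Tnfrsf1b, and 5 genes lie beyond 2-fold in the same direction on both axes, among them Zfp991, for which a further probe set had the opposite direction (-1.82 and -1.44).

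Genes that TNF is known to induce differed little between Tnfr2-/- and wildtype glomeruli. Of 25 such genes on a fixed list, 17 had a positive and 8 a negative log2 change, with a median of 0.07 and a range of -0.15 to 0.40. Arrays overlapped in 24 of them, while of all genes 2.62% were lower and 2.32% higher without overlap, so this count is near that of all genes. Against the same wildtype arrays 17 of them were called lower in Tnfr1-/- glomeruli, where 0.72% of all genes were called lower. Ccl2, which attracts monocytes, was at 12.51, 12.75 and 12.35 in wildtype and at 12.72, 12.78 and 12.04 in Tnfr2-/- glomeruli, while Tnfr1-/- glomeruli had 6.78, 7.84 and 6.30. Its log2 change without Tnfr2 was -0.02 (95% interval -0.80 to 0.75). Icam1, an endothelial adhesion molecule for leukocytes, was at 11.72, 11.95 and 11.20 in wildtype and at 11.76, 11.67 and 11.84 in Tnfr2-/- glomeruli (log2 change 0.14, 95% interval -0.41 to 0.68).

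Vcam1, which holds monocytes and lymphocytes, had a log2 change of 0.06 (95% interval -0.84 to 0.97) and Cxcl10, a ligand of CXCR3 on T cells, one of -0.10 (95% interval -0.86 to 0.66). Complement factor B (Cfb), part of the alternative pathway, was at 10.47, 10.95 and 10.22 in wildtype and at 11.04, 11.26 and 9.85 in Tnfr2-/- glomeruli, with Tnfr1-/- arrays at 5.18, 5.76 and 5.47. Tlr2, a receptor for bacterial lipoproteins, was the 1 gene of the 25 whose arrays did not overlap, at 8.09, 7.94 and 7.81 in wildtype and 8.14, 8.43 and 8.29 in Tnfr2-/- glomeruli (log2 change 0.34, 95% interval 0.06 to 0.63). The intervals of 21 of the 25 genes lay within 2-fold of no change, where those of 91.3% of all genes did. For 24 of the 25 the lower bound lay above -1 on the log2 scale, the exception being Nfkb2, whose interval ran from -1.60 to 1.499.

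**Figure D4:**
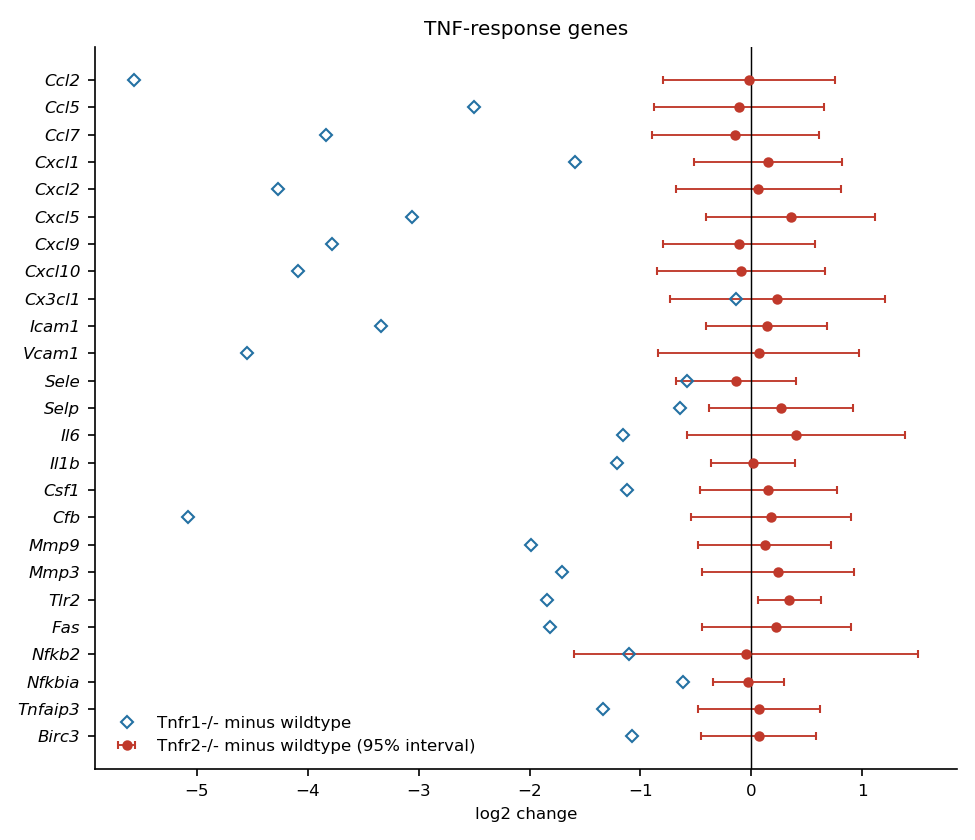
Log2 change (x axis) of 25 TNF-response genes (y axis) in Tnfr2-/- minus wildtype glomeruli, as red points with 95% intervals from limma, and in Tnfr1-/- minus wildtype glomeruli, as open diamonds. The red points lie between -0.15 and 0.40, and 22 of the diamonds lie below the interval of the same gene; both contrasts use the same wildtype arrays.

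Sequences before the start sites of some of these genes are shown because they hold the element through which TNF receptor signalling is known to act on them. The motif GGGA, any base, then TTTCC, 10 bases in all and a form of the NF-kB consensus, was searched on both strands from 250 bases before to 50 bases after each start site in the RefSeq promoter table for GRCm38.p6. It was found in 6 of 18 listed TNF-response genes with a window and in 0.466% of all 27025 genes. Capitals mark the match, each stretch ends before the start site, and a match is a description of these letters and does not show binding.

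Cxcl1, chr5:90891154-90891203, plus strand: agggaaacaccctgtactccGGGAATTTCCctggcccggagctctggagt
Cxcl2, chr5:90903782-90903831, plus strand: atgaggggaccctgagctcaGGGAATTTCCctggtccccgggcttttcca
Nfkbia, chr12:55492648-55492696, minus strand: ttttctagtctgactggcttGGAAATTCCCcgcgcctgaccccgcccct
Il6, chr5:30013050-30013099, plus strand: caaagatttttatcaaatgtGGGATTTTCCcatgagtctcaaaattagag
Csf1, chr3:107760594-107760643, minus strand: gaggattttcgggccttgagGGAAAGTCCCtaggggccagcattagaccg

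The sixth gene with a match, Nfkb2, has no stretch shown, and its log2 change was -0.05 with the widest interval of the 6, -1.60 to 1.499. None of the 6 genes differed beyond the spread of the arrays. Cxcl1, which attracts neutrophils, was at 11.98, 12.27 and 12.28 in wildtype and at 12.55, 12.34 and 12.10 in Tnfr2-/- glomeruli, and Cxcl2, which does the same, at 11.23, 11.60 and 11.70 and at 11.72, 11.53 and 11.46. Nfkbia, which encodes the NF-kB inhibitor IkB alpha, had 13.39, 13.39 and 13.55 in wildtype and 13.39, 13.35 and 13.51 in Tnfr2-/- glomeruli. Its interval was the narrowest of the 6, at -0.35 to 0.29. The log2 changes of Il6, a cytokine of the acute phase, and of Csf1, the growth factor of macrophages, were 0.40 (95% interval -0.58 to 1.39) and 0.15 (95% interval -0.47 to 0.77).

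Gene lists by function had medians near that of all genes. Of 26 chemokine ligands, Ccl12 was the 1 gene with an unadjusted p under 0.05 (log2 change 0.35, at a low level of 3.38 to 3.65 in wildtype), the median log2 change was -0.05 and the extremes were -0.31 for Cxcl3 and 0.40 for Ccl3. The medians were 0.01 for 10 NF-kB subunits and inhibitors, 0.13 for 14 leukocyte adhesion molecules, 0.00 for 24 cytokines and growth factors, 0.14 for 15 complement components and regulators, 0.01 for 13 genes of MHC class I and the immunoproteasome, 0.11 for 27 interferon-stimulated genes and -0.01 for 17 matrix metalloproteinases and inhibitors. In these 7 lists the 1 gene with an unadjusted p under 0.05 was Irf8. Of 20 pattern recognition receptors, Clec4e was lower and Tlr2 higher at that level. Among 24 genes of TNF receptor signalling the targeted gene was the 1 that reached it, and the remaining lists for apoptosis, oxidant enzymes, hypoxia, matrix and heat shock genes had medians between -0.05 and 0.07. Nid2, in the matrix list, and Orm1, an acute phase protein at a low level, were the genes of those lists, with the acute phase list included, at an unadjusted p under 0.05.

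The genes that depend on TNF receptor 1 were then taken as a set. In Tnfr1-/- glomeruli 131 genes were called lower (0.72%) and 88 higher (0.484%) than in wildtype. Since this choice used the wildtype arrays, the values in Tnfr2-/- against wildtype are a description. The 131 genes had a median log2 change of -1.59 in Tnfr1-/- glomeruli and of 0.07 in Tnfr2-/- glomeruli. In the latter 127 of them (97%) were within 1.5-fold of wildtype, while of all genes 0.478% were at least 1.5-fold away. The 88 genes called higher had a median of 0.12 in Tnfr2-/- glomeruli. Caln1, a calcium-binding protein of neurons named after its values were seen, was the 1 gene of these at an unadjusted p under 0.05 with a lower value, and 9 were higher, against 0.258% and 0.445% of all genes, among them Kdr, Angpt2, Prkch and Afap1l1.

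Tnfr2-/- glomeruli were then compared directly with the other mutants. Tnfr2-/- glomeruli were called higher than Tnfr1-/- glomeruli in 154 genes (0.846%) and lower in 65 (0.357%). Against Tnfr1,2-/- glomeruli, which share no array with the contrast that chose the 131 genes, 190 genes were higher (1.04%) and 63 lower (0.346%). Both contrasts take the spread of a gene from the same fit. Of the 131 genes 115 were called higher in Tnfr2-/- than in Tnfr1,2-/- glomeruli, with a median log2 difference of 1.74, and the 88 genes had a median of -0.98. Ccl2 was higher by 5.64 (adjusted p = 9.9e-06), Cfb by 5.29 (adjusted p = 9.9e-06), Icam1 by 4.05 (adjusted p = 9.9e-06) and Tlr2 by 2.28 (adjusted p = 7.2e-06). Tnfrsf1b itself differed between these genotypes by -0.15, as both lack it.

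Markers of the cells of the glomerulus were compared next. In bulk samples fewer cells of a type and less RNA per cell cannot be told apart. Podocyte markers were high in both genotypes, with Podxl at 13.29, 13.01 and 13.28 in wildtype and 12.78, 13.19 and 13.51 in Tnfr2-/- glomeruli, and tubular markers were low, with a median of 5.22 over 16 genes in wildtype. The median log2 changes were -0.11 for 13 podocyte markers, -0.01 for 14 mesangial and smooth muscle markers, 0.03 for 16 tubular markers, -0.07 for 10 neutrophil markers, -0.07 for 13 lymphocyte markers and 0.01 for 12 housekeeping genes. No gene of these 6 lists had an unadjusted p under 0.05. The 8 parietal epithelial markers had a median of 0.38, which was -0.01 without wildtype replicate 2, and the 24 cell cycle genes one of 0.22, which was 0.04 without it.

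Glomerular endothelial markers were the list furthest from 0. Of 16 markers 15 had a positive log2 change, and the median was 0.50. At an unadjusted p under 0.05, 4 were higher, Kdr, Cdh5, Tek and Ehd3, against 0.445% of all genes. The 1 negative marker was Vwf (log2 change -0.21), whose Tnfr2-/- arrays all lay below the wildtype arrays. With the array set as a block 9 of the 16 reached that level, where 1.05% of all genes did in this direction. Kdr, the main VEGF receptor of endothelium, was at 8.94, 8.62 and 9.34 in wildtype and at 9.45, 9.63 and 9.79 in Tnfr2-/- glomeruli (log2 change 0.65, 95% interval 0.16 to 1.15). Cdh5, the cadherin of endothelial junctions, was at 9.87, 9.23 and 9.72 in wildtype and at 10.42, 9.86 and 10.26 in Tnfr2-/- glomeruli, where the ranges overlap. Tek, the angiopoietin receptor, was at 8.15, 7.88 and 8.35 in wildtype and at 8.79, 8.55 and 8.60 in Tnfr2-/- glomeruli, and Ehd3, an endocytic protein of glomerular endothelium, at 9.19, 9.02 and 8.53 and at 9.70, 9.44 and 9.27. None was called over all genes.

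Leaving out 1 of the 6 arrays at a time gave medians of the 16 endothelial markers between 0.22, without Tnfr2-/- replicate 1, and 0.54, without Tnfr2-/- replicate 3. It was 0.39 without wildtype replicate 2, with 13 markers positive. Against the same 3 wildtype arrays the median was 0.70 in Tnfr1-/- and 0.30 in Tnfr1,2-/- glomeruli, so that all 3 mutants lay above wildtype. Between Tnfr1,2-/- and Tnfr1-/- glomeruli, which share no array with Tnfr2-/- and wildtype glomeruli, the median was -0.31 and 13 of 16 markers were negative. The array sets were not balanced there. The mean level of the list was 9.08, 8.71 and 8.55 in Tnfr1,2-/- replicates 1 to 3, the last 2 of which are in set 2. It was 9.26, 9.44 and 8.74 in Tnfr1-/- glomeruli, where replicate 3 alone is in set 2. The part of the array set in this median was not tested. Within Tnfr2-/- and wildtype glomeruli the median was 0.47 in array set 1 and 0.27 in array set 2. The summed linear signal of the list ran from 8008 to 10950 in wildtype and from 9601 to 14994 in Tnfr2-/- glomeruli, ranges that overlap.

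**Figure D5:**
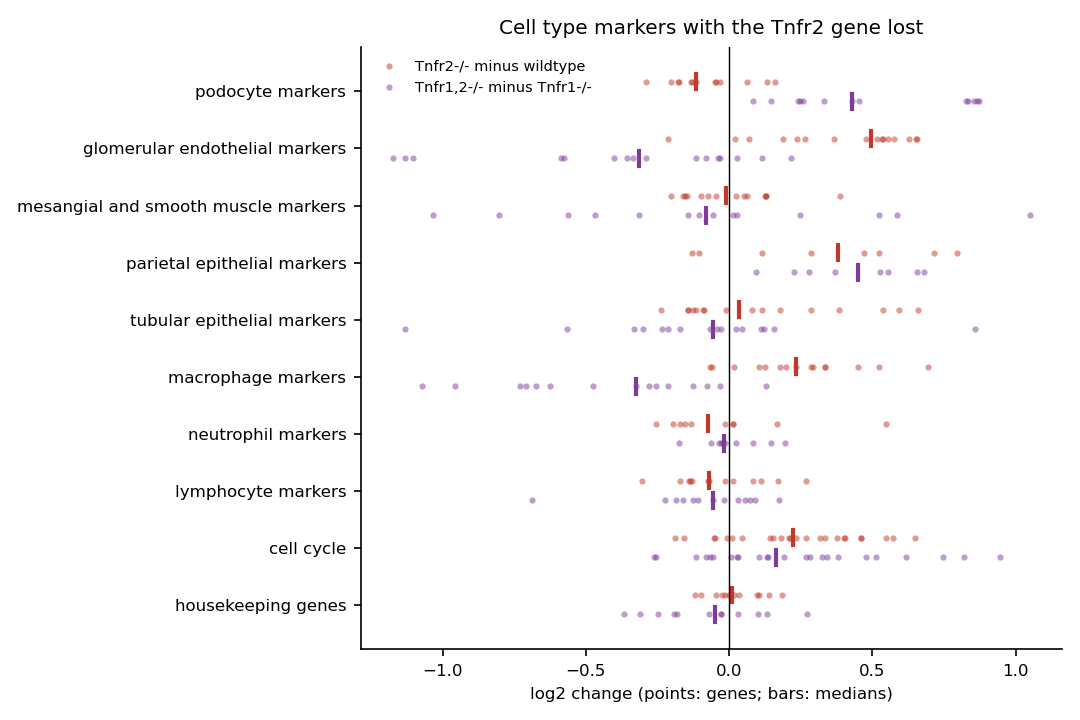
Log2 changes (x axis) of the members of 10 gene lists (y axis) in Tnfr2-/- minus wildtype glomeruli (red) and Tnfr1,2-/- minus Tnfr1-/- glomeruli (purple), with bars for the medians. The endothelial markers have a median of 0.50 in the first and -0.31 in the second comparison, the podocyte markers -0.11 and 0.43. The mean podocyte marker level is 11.06, 9.55 and 10.9 in Tnfr1-/- replicates 1 to 3, where replicate 2 stands apart. In Tnfr1,2-/- replicates 1 to 3 it is 11.18, 10.99 and 10.82. The array sets are balanced in the first comparison and not in the second.

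Whether the effect of losing Tnfr2 depended on Tnfr1 was tested as an interaction, the change between Tnfr1,2-/- and Tnfr1-/- glomeruli minus the change between Tnfr2-/- and wildtype glomeruli. No gene was called by limma (0%), the smallest adjusted p was 0.998, and 245 genes had an unadjusted p under 0.05. Kdr had an interaction of -0.99 (95% interval -1.69 to -0.30) and Rab6b one of -0.73 (95% interval -1.29 to -0.18), neither of which passed the adjustment. This fit had no term for the array set, which was not balanced between Tnfr1,2-/- and Tnfr1-/- glomeruli.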

How the data were processed

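RNA of 12 glomerular cultures, 3 independent preparations per genotype, was hybridised by the authors to Affymetrix mouse whole-genome arrays. The deposited values are log2 expression values that the authors made by robust multi-array averaging of all 12 arrays together, so no further normalization was applied and an absolute transcript number cannot be read from them. Such averaging forces the arrays to a common distribution, so a shift shared by most genes would not be seen. Array groups were taken from the sample titles.

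Of 45101 probe sets, 64 were controls, 34958 carried 1 gene symbol, 932 several and 9211 none in the platform annotation. Each of the 18194 symbols was represented by 1 probe set, that of highest mean across all arrays. Genes were tested with limma 3.58.1 in R 4.3.3 on all 12 arrays without covariates, with Benjamini-Hochberg adjustment over all genes, and called at an adjusted p under 0.05 and at least 1.5-fold. The fit had 8 residual degrees of freedom. It was tested on simulated data with known changes. With 3 arrays on either side the smallest two-sided p of an exact permutation test is 0.1. The number of arrays limits the precision.

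Arrays with the same replicate number in wildtype and Tnfr2-/- deviated together from their group means (correlations of 0.555, 0.208 and 0.727 for replicates 1, 2 and 3). This was taken as pairing and comes from the data and not from the labels. In each genotype 2 of the 3 arrays correlated best with the array of their own number. Replicate 3 of both genotypes was in array set 2, and the part of the array set in this was not tested. In Tnfr1,2-/- glomeruli replicate 2 was in array set 2 as well. Alternatives were the replicate number or the array set as a block, array weights, SAM (the study's own test), other choices of probe set, a filter on dim genes, and leaving out each array.

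The genes named were Tnfrsf1b, Tnfrsf1a and Tnf, those called under any of these fits, the 10 with the smallest p in each direction without overlap of the arrays, a fixed set of TNF-response genes, up to 4 genes of each list, the genes with the smallest interaction p and those near Tnfrsf1b. Genes named outside this rule, among them the podocyte marker Podxl, were chosen after their values were seen. All members and lists were chosen with earlier results of these data known. A probe set without a symbol is not reported here. Promoter sequences are those of RefSeq for GRCm38.p6, and 18 of 25 listed TNF-response genes had a window.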

Additional observations from a re-analysis of the deposited data

Results flagged for a closer look

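Among the genes named by the rule, 6 were separated in opposite directions with and without Tnfr1. In these the 3 arrays of Tnfr2-/- glomeruli all lay above or all below the wildtype arrays. The 3 arrays of Tnfr1,2-/- glomeruli lay the other way relative to the Tnfr1-/- arrays. The rule took genes by a small interaction p and by arrays without overlap, so it favoured such genes, and their presence is a description. The array sets were not balanced between Tnfr1,2-/- and Tnfr1-/- glomeruli. The difference between both changes (without Tnfr1 minus with Tnfr1, log2 scale) was -0.99 for Prkch, an endothelial protein kinase C isoform, whose changes were 0.55 with and -0.44 without Tnfr1. It was -0.95 for Ampd2, an AMP deaminase (0.40 and -0.55), -1.04 for Stard9, a kinesin (0.48 and -0.56), and -0.74 for Afap1l1, an actin filament associated protein (0.51 and -0.23). It was 0.96 for ND5, a mitochondrial subunit of complex I (-0.51 and 0.45), and 0.59 for Slc17a6, a vesicular glutamate transporter (-0.39 and 0.20). None passed the interaction test over all genes (adjusted p = 0.998 for each, limma). Over all genes, arrays did not overlap in both comparisons in opposite directions in 34 genes, these 6 included, and in the same direction in 32.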

How the results depend on the processing

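The count of genes called in Tnfr2-/- against wildtype glomeruli, 0, became 1 with all probe sets, 3 with array weights, 3 with the array set as a block, 3 with SAM and 0 to 2 when 1 array was left out, the 2 being Tnfrsf1b and Rab6b without Tnfr1-/- replicate 2. With the replicate number as a block, the pairing read from the data, it was 1, against 450 for Tnfr2-/- against Tnfr1-/-, 639 against Tnfr1,2-/- and 4 for Tnfr1,2-/- against Tnfr1-/-. Tnfr2-/- against Tnfr1-/- gave 219 calls, 462 with the array set as a block and 127 to 256 with 1 array left out, lowest without Tnfr2-/- replicate 2. Tnfr2-/- against Tnfr1,2-/- gave 253 calls, 168 from only the arrays of both genotypes, 760 with array weights, 404 with the array set as a block, 97 in array set 1 only and 147 to 277 with 1 array left out, lowest without Tnfr2-/- replicate 2. The call of 1 gene between Tnfr1,2-/- and Tnfr1-/- became 0 with probe sets averaged per gene, with only the arrays of both genotypes and in array set 1 only, 3 with a mean-variance trend or a filter on dim genes, 4 with array weights, the array set as a block or SAM, and 1 to 2 with 1 array left out. The interaction gave 0 calls under each of the settings run (SAM could not give one), with 456 genes at an unadjusted p under 0.05 with the array set as a block. The log2 change of Tnfrsf1b passed the threshold with array weights (-2.34), with the array set as a block and with SAM (-2.30), ran from -2.46 to -2.11 with 1 array left out, and was -1.38 (adjusted p = 0.743, limma) with its probe sets averaged. The change of Zfp991 was reversed when its probe sets were averaged (-0.084). Of 4728 values compared for 177 named genes, 4711 were counted as the same. These kept their side of the threshold and either kept their direction or moved by less than the gene's larger SD within wildtype or Tnfr2-/-. Small changes could therefore turn in sign and still be counted, as for Tnf, which ran from -0.14 to 0.18 with 1 array left out. Leaving out wildtype replicate 2 for the counts of genes past 1.5-fold was chosen after seeing the data. The causes of these differences were not tested.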
